A study of Homo sapiens with 5 samples.

Results

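hsa-miR-21-5p and hsa-miR-21-3p, both arms of the human MIR21 hairpin, are described here in 5 small RNA libraries of the MCF10A line, mammary epithelial cells that are immortalized but do not form tumours. The members were chosen by name: they are 2 of the 2565 human miRNA names that the deposited count tables hold, and both were among the 697 that passed the filter on low counts. 2 libraries came from detached cells, kept for 24 h on plates coated with 2% poly-HEMA, to which cells do not adhere. The other 3 came from attached cells on uncoated plates, for which the time label gives 0 h while the design text gives 24 h of culture, so the interval is unresolved. The labels name no engineered allele in either group, and all cells shared a medium with horse serum, epidermal growth factor, insulin, cholera toxin and hydrocortisone. RNAs of 18 to 24 nt were gel-purified from 50 µg of total RNA. Whether the replicates were separate cultures is not labelled, so every p-value refers to the spread between these libraries, technical or not. In bulk libraries, fewer cells that hold a miRNA and less of it per cell cannot be told apart.

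miR-21-5p is among the most abundant miRNAs of many cultured epithelial and tumour cells. It is loaded into Argonaute as the guide strand, and its described targets include PDCD4, SPRY1 and TPM1, repressors of growth and survival signalling or parts of the actin cytoskeleton. STAT3 and AP-1 are known activators of MIR21 transcription. Of the duplex that Dicer cuts from the hairpin, one arm is usually kept and the other, here the 3p arm, is mostly degraded. Loss of matrix contact triggers death signalling in normal epithelial cells, and a comparison of adherent with suspended cells asks which miRNAs differ between these states.

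In the GENCODE 29 annotation of hg38, MIR21 lies on the plus strand of chromosome 17 from 59841266 to 59841337, inside VMP1, a gene of autophagosome formation on the same strand. It overlaps an exon of 1 VMP1 transcript, with no annotated coding or UTR sequence there. The sequences below, from RefSeq on GRCh38.p14 and written 5′ to 3′, show the dominant miRNA of these libraries, the only other one in the RefSeq table with its seed, and the hairpin. Capitals mark bases 2 to 8 of the mature miRNA, the seed that pairs with targets.
hsa-miR-21-5p: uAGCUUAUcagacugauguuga
hsa-miR-590-5p: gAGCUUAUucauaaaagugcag
MIR21 hairpin: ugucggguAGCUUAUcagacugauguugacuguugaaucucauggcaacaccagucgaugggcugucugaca
The mature 5p arm has 22 nt and fills bases 8 to 29 of the 72-nt hairpin. Among 2370 human mature names in the RefSeq table, the sequence nearest to miR-21-5p differed by 7 edits (substitutions, insertions or deletions). The mature miR-21-3p is not among these names, so names with its seed or a similar sequence were not searched for. The 20 names that carry miR-21 of other species held 0 counts in all 5 libraries.

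Human miRNA names received 8805009 to 15793173 counts per library. Attached replicate 2 stands apart from the rest, with a Spearman correlation across tested names of 0.812 to 0.857 with the other libraries, against 0.927 to 0.961 among the other 4.

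miR-21-5p ranked first in every library and took more than 1 in 3 human miRNA counts in both states. In detached cells it held 5936611 counts (37.6% of human miRNA counts) in replicate 1 and 3688468 counts (35.0%) in replicate 2. In attached cells it held 5103667 counts (42.0%), 3455896 counts (39.2%) and 3734070 counts (36.2%) in replicates 1, 2 and 3. The groups overlapped, since attached replicate 3 lay between the detached libraries. The mean share was 36.3% ± 1.82 in detached (SD, n = 2) and 39.1% ± 2.91 in attached cells (SD, n = 3), a difference of -2.84 percentage points (exact permutation test, two-sided, p = 0.4). With 10 possible assignments of the libraries, the smallest p this design allows is 0.1. Leaving out 1 library at a time moved the difference between -4.32 points (without attached replicate 3) and -1.41 points (without attached replicate 1), with -4.12 points without detached replicate 1, -1.55 points without detached replicate 2 and -2.78 points without attached replicate 2. The widest Wilson 95% interval of a share was 0.0645 points, so counting error was far below the differences between libraries. Such intervals hold for counting error alone, because no molecular identifiers that would part molecules from their PCR copies are recorded.

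No other name came near this level. The second name was let-7a-5p (7.78%) in detached replicate 1 and miR-205-5p (8.24%) in detached replicate 2, which miR-21-5p exceeded 4.83-fold and 4.25-fold. In attached cells the second name was miR-205-5p in replicate 1 and let-7a-5p in replicates 2 and 3, exceeded 6.89-fold, 4.39-fold and 5.85-fold. let-7a-5p belongs to the let-7 family of growth-restraining miRNAs, and miR-205-5p marks basal and stratified epithelia. Names ranked 2 to 10 together held 34.2% and 31.5% of counts in the detached libraries, against 30.4%, 37.7% and 33.2% in the attached ones. It took the next 12 names in either detached library to equal miR-21-5p, and the next 21, 11 and 11 in the attached libraries. The log2 fold changes of names ranked 2 to 10 ran from -2.87 for miR-222-3p (SE 1.23) to 0.38 for miR-205-5p (SE 0.56), detached over attached, after TMM scaling, and edgeR called 0 of them. Among these, miR-100-5p, which represses MTOR, had -0.73 (SE 0.49) and the collagen repressor miR-29a-3p -1.28 (SE 0.73). miR-29a-3p measured 22986 and 15265 CPM in detached and 30067, 89282 and 19915 CPM in attached cells, and miR-222-3p 5043 and 2883 CPM in detached and 3896, 73861 and 9415 CPM in attached cells, so attached replicate 2 was far above the rest for both. Ordered by mean CPM, the others were let-7a-5p, let-7b-5p, miR-29b-3p, let-7f-5p and miR-125b-5p, each within 0.33 of 0 on the log2 scale.

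**Figure D1:**
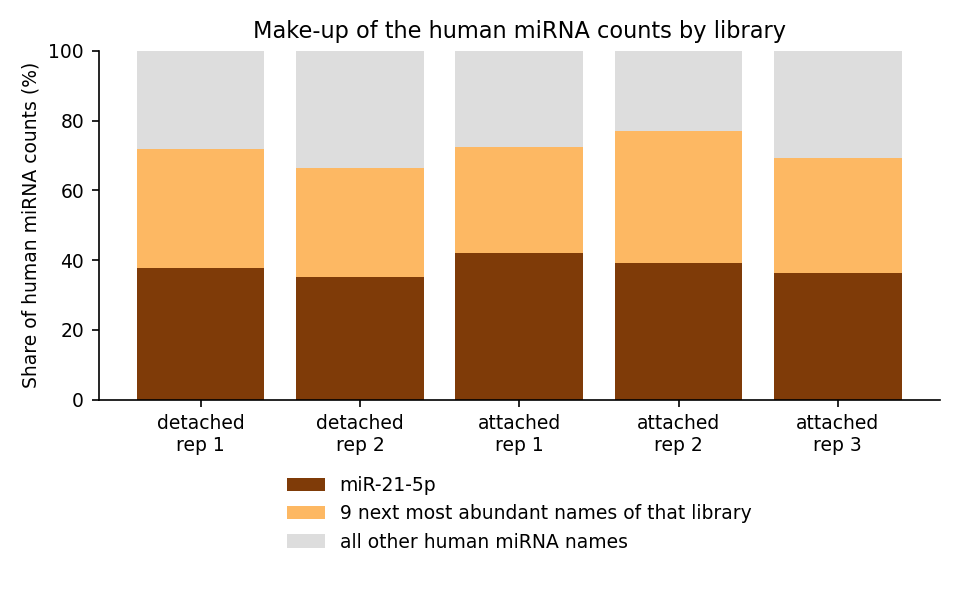
Share of human miRNA counts (vertical axis, percent) held by miR-21-5p, by the 9 next most abundant names of the same library and by all other human miRNA names, for 2 detached and 3 attached libraries. miR-21-5p takes 35.0% to 37.6% in detached and 36.2% to 42.0% in attached libraries, against 30.4% to 37.7% for the 9 next names of a library together.

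The 3p arm was present at a small fraction of the 5p arm, yet was itself an abundant miRNA. miR-21-3p had 29994 and 25622 counts in the detached libraries and 39511, 16633 and 24365 counts in attached replicates 1, 2 and 3. By count it ranked 48 and 50 among human names in detached cells, against 38, 41 and 49 in attached cells. Its share was 0.190% and 0.243% in the detached libraries, against 0.325%, 0.189% and 0.236% in the attached ones, so the groups overlapped. The mean share was 0.217% ± 0.0377 in detached (SD, n = 2) and 0.250% ± 0.0692 in attached cells (SD, n = 3), with an exact permutation p of 0.9, two-sided.

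Levels between groups were then compared as CPM, counts per 1000000 human miRNA counts after TMM scaling, a method that sets libraries level on the bulk of names rather than on their totals. miR-21-5p measured 378040 and 280653 CPM in detached cells and 444475, 524436 and 317330 CPM in attached replicates 1, 2 and 3. Attached replicate 2 was highest on this scale but not by share, because of its TMM factor: the factors were 0.994 and 1.25 in the detached libraries, against 0.945, 0.748 and 1.14 in attached replicates 1, 2 and 3. miR-21-3p measured 1910 and 1950 CPM in detached cells and 3441, 2524 and 2071 CPM in attached cells. On the CPM scale both detached libraries lay below all 3 attached ones for the 3p arm, which they did not by share. Such a separation toward lower levels was seen in 14.2% of the 697 tested miRNAs, and in either direction in 29.1%.

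Neither arm passed the test. edgeR's quasi-likelihood test gave miR-21-5p a log2 fold change, detached over attached, of -0.38 (SE 0.45, 95% interval -1.42 to 0.66, adjusted p = 0.861). For miR-21-3p it gave -0.47 (SE 0.55, 95% interval -1.74 to 0.79, adjusted p = 0.857). The number of members called was 0 of 2, beside 0% of the 697 tested miRNAs called higher and 0% called lower at an adjusted p under 0.05. At an unadjusted p under 0.05, 33 names (4.73%) were higher and 16 (2.3%) lower, and among human names DESeq2 called 12 higher and 0 lower and limma-voom 0 in either direction. The authors' deposited table, which covers small RNAs of all classes, gives -0.33 (SE 0.68, adjusted p = 0.998) for miR-21-5p and -0.47 (SE 0.69, adjusted p = 0.998) for miR-21-3p. Of its 2991 small RNAs with an adjusted p, 17 were higher and 1 lower in detached cells at an adjusted p under 0.05.

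**Figure D2:**
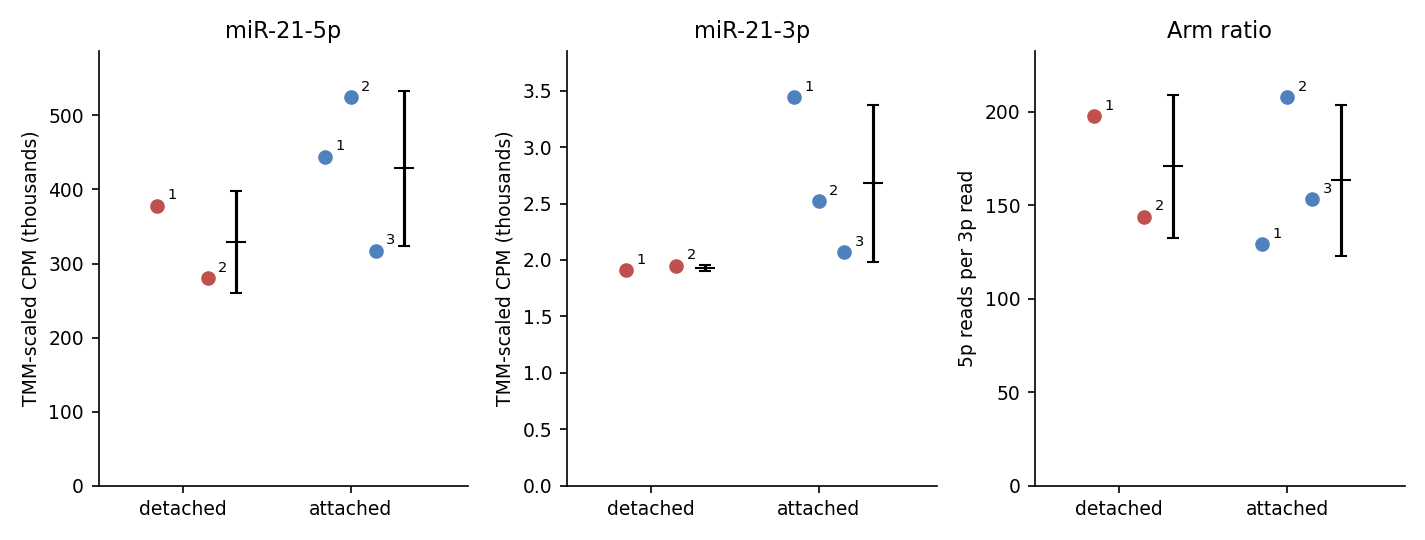
TMM-scaled CPM, in units of 1000, of miR-21-5p and miR-21-3p, and the number of 5p reads per 3p read, in each detached (red) and attached (blue) library, with replicate numbers beside the points and mean ± SD as black bars. The 5p arm and the arm ratio overlap between the groups, while the 3p arm lies at 1910 and 1950 CPM in detached and at 2071 to 3441 CPM in attached cells.

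The ratio of the arms, which does not depend on library scaling, overlapped between the states. There were 198 and 144 reads of 5p per read of 3p in the detached libraries, against 129, 208 and 153 in attached replicates 1, 2 and 3. In rank order there was a detached library between each pair of neighbouring attached ones. Of every 1000 reads of the hairpin, the 3p arm made up 5.03 and 6.90 in the detached libraries, against 7.68, 4.79 and 6.48 in the attached ones. Of 810 human hairpins with both arms named, 178 had both arms past the filter, and limma was fitted to the log2 arm ratio of all of them. miR-21 differed by 0.08 (detached minus attached, SE 0.86, 95% interval -1.80 to 1.95, adjusted p = 0.956), and 0% of the 178 hairpins passed an adjusted p under 0.05, with 13 (7.3%) at an unadjusted p under 0.05. In limma each hairpin's variance is drawn toward that of all hairpins, which widens the interval of a steady one. An exact permutation test of the ratio over libraries gave p = 0.8, two-sided.

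Set beside the other hairpins, the ratio of miR-21 was steady. Its mean log2 ratio of 7.35 was the 24th most uneven of 178, where the median hairpin had an absolute log2 ratio of 3.71. Among the 50 hairpins with most reads it ranked 18th, against a median of 6.65. Its SD over the 5 libraries, 0.30, was the 5th smallest, against a median of 1.02. Among the 50 with most reads the median SD was 1.01, and miR-21 had the 2nd smallest. let-7a had a log2 ratio of 8.02 and 7.03 in the detached libraries and 6.54, 9.84 and 6.60 in the attached ones, with the high value in attached replicate 2. miR-205 averaged 8.88 in the detached and 7.64 in the attached libraries (difference 1.24, SE 0.86, limma adjusted p = 0.614). let-7b ranged from 6.81 to 9.56 and miR-29a, whose 3p arm dominates, from -7.72 to -4.95. Without attached replicate 2 the SD of the miR-21 ratio was 0.26, the 17th smallest of 174, against a median of 0.60. The difference between the groups was then 0.26 (SE 0.54). These ranks describe the libraries and were not tested.

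**Figure D3:**
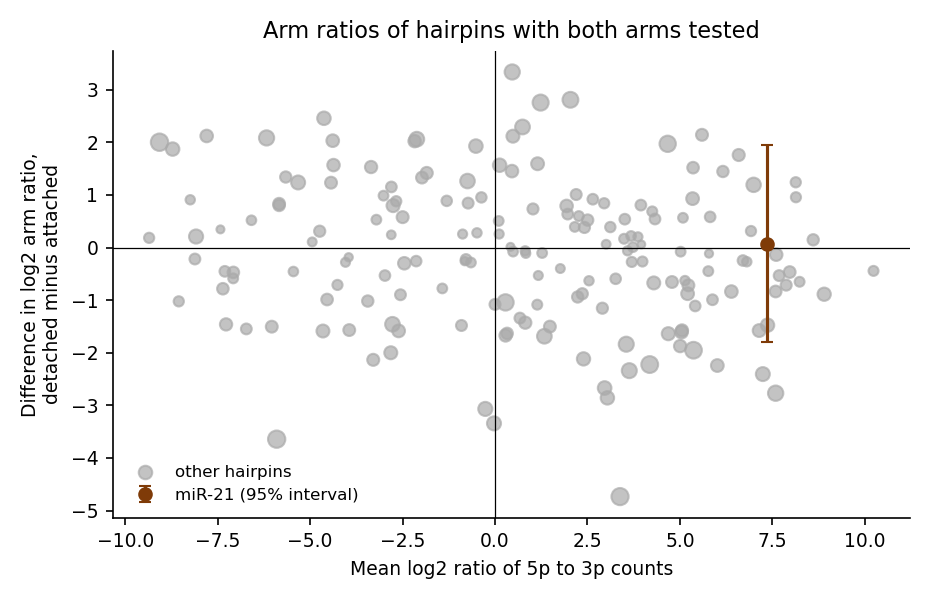
Difference in log2 arm ratio between detached and attached cells (vertical axis) against the mean log2 ratio of 5p to 3p counts (horizontal axis) for 178 hairpins, with point area growing with the SD over the 5 libraries. miR-21 (brown, with its 95% interval) has a mean log2 ratio of 7.35 and a difference of 0.08.

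Both arms also varied less between libraries than most miRNAs. The SD of log2 CPM over the 5 libraries was 0.36 for miR-21-5p and 0.36 for miR-21-3p, against a median of 0.76 over the 697 tested names. They ranked 68th and 63rd from the steadiest, and 9th and 8th among the 65 names with a mean of at least 1000 CPM, where the median was 0.63. In attached replicate 2 miR-21-5p lay 0.58 above the mean of the other 4 libraries on the log2 scale and miR-21-3p 0.15 above, where the median tested name lay 1.21 away in either direction. Without that library the SD was 0.30 for the 5p arm, against a median of 0.48, and ranked 136th of 679. For the 3p arm it was 0.40 and ranked 248th, so its steadiness against the other names rests on that library.

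**Figure D4:**
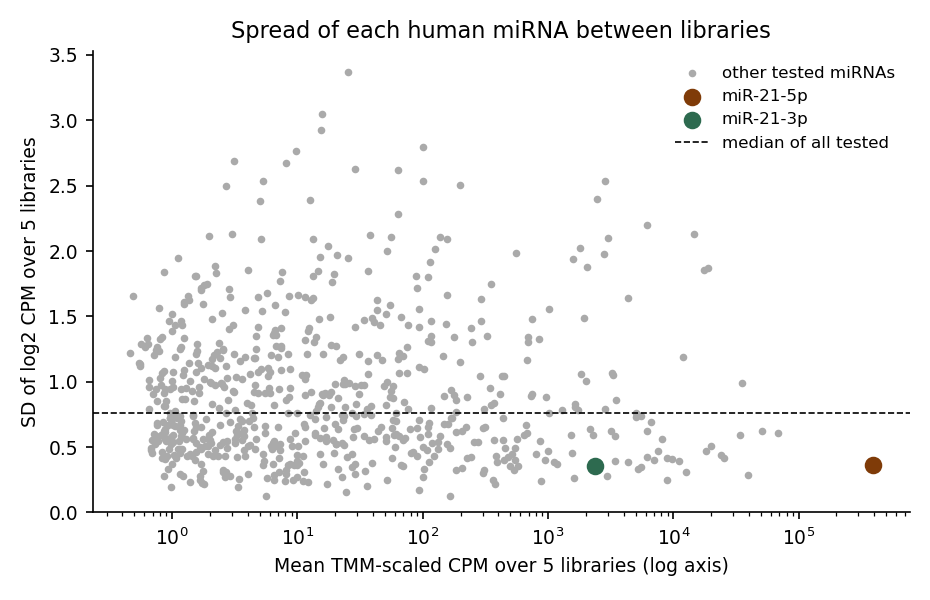
SD of log2 CPM over the 5 libraries (vertical axis) against mean TMM-scaled CPM (horizontal axis, log scale) for 697 tested human miRNAs. Both arms of miR-21, at 0.36, lie below the dashed median of 0.76, and miR-21-5p lies far to the right of every other name.

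A single name with so large a share enters the scale of every other miRNA. The other human names shared 9856562 and 6845272 counts in the detached libraries, against 7050111, 5349113 and 6587791 in the attached ones. Leaving miR-21-5p out of the totals would multiply the CPM of every other name by 1.60 and 1.54 in the detached libraries and by 1.72, 1.65 and 1.57 in the attached ones. Because these multipliers were alike, the log2 fold change of every other name moved only by -0.067 when libraries were scaled by totals. With totals that was the largest shift among the 10 most abundant names, followed by 0.034 for leaving out miR-205-5p. With TMM the shift was -0.0086, the smallest of the 10. Leaving out any other of them gave about -0.13 (let-7a-5p, for example) or -0.024 (miR-222-3p), whatever its share. Those values lie near the shifts from changing the library that TMM compares with, -0.12 for detached replicate 1 and -0.025 for attached replicate 3. The rank is therefore not read as the weight of a name. The shift for miR-21-5p lay between -0.0086 and 0.0035 whichever library TMM compared the others with. The choice of that library moved the scale more, by -0.17 when attached replicate 2 was used.

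The fold change of miR-21 moved with the scaling. With totals alone it was -0.11 (SE 0.28, adjusted p in edgeR 0.959) for miR-21-5p and -0.21 (SE 0.52) for miR-21-3p on the log2 scale, while the median of the other tested names moved to 0.20, against -0.04 with TMM. Measured from that median, miR-21-5p lay at -0.31 with totals and at -0.34 with TMM. Scaling every library to its own miR-21-5p count, an alternative chosen after seeing the data, put the median of the other names at 0.31 and miR-21-3p at -0.08 (SE 0.50), with 0 names called in either direction. In every one of the 20 alternatives run for the 5p arm its log2 fold change was negative, from -0.60 to -0.11 (without attached replicate 3 and with totals alone), and adjusted p ran from 0.739 to 0.999. For the 3p arm all 21 were negative, from -0.66 to -0.08, with adjusted p in the same range. Without attached replicate 2 the values were -0.21 (SE 0.46) for the 5p arm and -0.52 (SE 0.47) for the 3p arm.

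**Figure D5:**
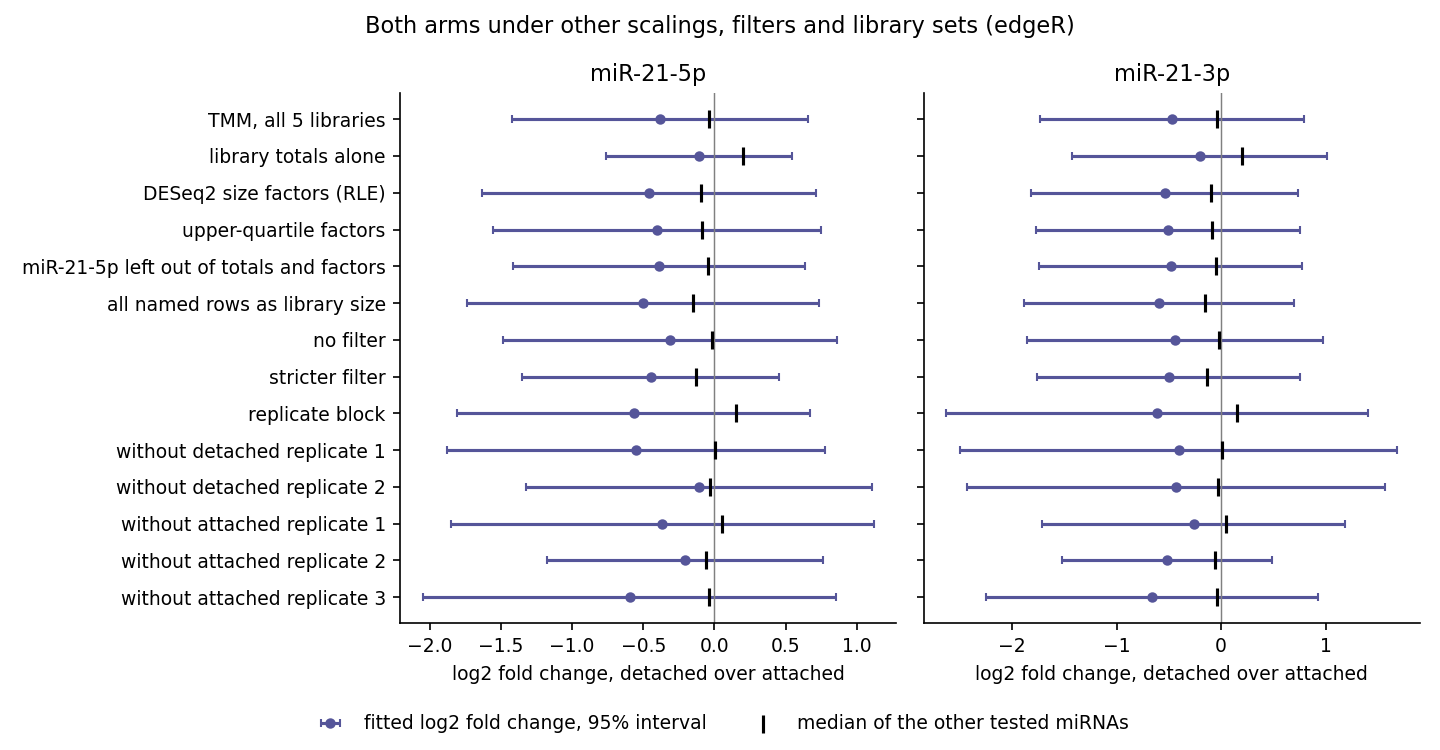
edgeR log2 fold changes, detached over attached, of miR-21-5p and miR-21-3p with 95% intervals (points and bars) and the median of the other tested miRNAs (black ticks) under 14 settings. Every interval spans 0, from -0.60 to -0.11 at the points for the 5p arm, and the tick moves to 0.20 with library totals alone.

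The concentration of reads on 1 name also limits what is left for the rest. The inverse Simpson index, the number of equally abundant names that would give the same concentration, was 6.28 and 7.17 in the detached libraries and 5.27, 5.67 and 6.80 in the attached ones. Without miR-21-5p it was 21.6 and 25.1 in the detached libraries, against 24.9, 16.4 and 25.2 in the attached ones. Counting floors of 3 reads corresponded to 0.191 and 0.228 CPM in detached and to 0.261, 0.455 and 0.255 CPM in attached libraries.

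miR-590-5p, from an intron of the translation factor gene EIF4H on chromosome 7 (GENCODE 29, MIR590 from 74191198 to 74191294), carries the same seed as miR-21-5p. It had 505 and 467 counts in the detached libraries, against 632, 85 and 519 in the attached ones, with attached replicate 2 low. miR-21-5p exceeded it 11756-fold and 7898-fold in detached cells and 8075-fold, 40658-fold and 7195-fold in attached cells. Detached over attached it measured -0.14 on the log2 scale (SE 0.76, 95% interval -1.88 to 1.59, adjusted p in edgeR 0.977). miR-21-5p thus held nearly all reads of this pair in both states.

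Among 170 other names with a mean of at least 100 CPM, those closest to miR-21-5p in profile were miR-140-3p, miR-151a-3p, miR-26b-5p, let-7e-5p and let-7g-5p. Likeness was the root mean square distance between log2 CPM profiles over the 5 libraries, each centred on its own mean, and ran from 0.089 to 0.148, against a median of 0.657. miR-140-3p, best known from cartilage, measured 516 and 453 CPM in detached and 697, 763 and 452 CPM in attached cells, high in attached replicates 1 and 2 as miR-21-5p was. miR-21-3p was the 14th closest name to miR-21-5p, at 0.266. The names closest to miR-21-3p were miR-128-3p, miR-193b-3p, miR-503-5p, miR-140-3p and miR-484, at 0.148 to 0.227.

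miRNAs linked to the same transcription factors were compared as a list of 9 tied to STAT3, AP-1 or NF-kB, which includes both arms. Of 8 tested, edgeR called 0 and 8 lay below 0 on the log2 scale. Their median was -0.83, against -0.04 over all tested names. The 8 are not separate cases, since both arms of miR-21 share a hairpin, and miR-221-3p and miR-222-3p had similar CPM in each library. The count below 0 was not tested, and the share below 0 over all names was not computed. At an unadjusted p under 0.05 in edgeR, 2 of the 8 were lower, against 2.3% of the 697 tested names. These 2 were miR-221-3p (-2.90, SE 1.24) and miR-222-3p (-2.87, SE 1.23), repressors of the cell cycle inhibitor p27. Both were high in attached replicate 2, at 69951 and 73861 CPM, and without that library they were -0.61 (SE 0.49) and -0.75 (SE 0.53). In that fit 8 of 8 were again negative, with a median of -0.63, against -0.06 over all tested names, 0 called and 0 at an unadjusted p under 0.05. Of the 679 names tested in it, 3.24% were called higher and 0.147% lower, and 9.57% were higher and 3.53% lower at an unadjusted p under 0.05. miR-181b-5p, described together with miR-21 as a STAT3 target in transformed MCF10A cells, measured 1177 and 1518 CPM in detached and 2182, 3830 and 2134 CPM in attached cells (-1.01, SE 0.59, edgeR adjusted p = 0.735). miR-155-5p had 0 counts in all 5 libraries.

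Markers of the labelled cell type were present. All 7 epithelial miRNAs were tested and summed to 85654 to 94736 CPM in detached and to 55593 to 98808 CPM in attached libraries. miR-205-5p made up much of the sum, at 52713 and 66030 CPM in detached and 64523, 22819 and 49827 CPM in attached cells. miR-203a-3p was scarce, at 122 and 38.4 CPM in detached and 6.79, 9.26 and 6.37 CPM in attached cells (3.42, SE 0.73, edgeR adjusted p = 0.170). Of the 7, 6 had positive log2 fold changes and 1 a negative one, and edgeR called 0. The negative one was miR-141-3p, at 12952 and 13875 CPM in detached and 19103, 29346 and 16477 CPM in attached cells (-0.69, SE 0.52, edgeR adjusted p = 0.773). Fibroblast or smooth muscle miRNAs summed to 14.7 to 58.1 CPM in detached and 3.91 to 15.9 CPM in attached libraries. Of 5 listed, 2 passed the filter. miR-145-5p had 267 and 81 counts in detached and 11, 6 and 4 in attached libraries (3.98, SE 0.78, edgeR adjusted p = 0.146). miR-143-3p overlapped, at 39.7 and 7.38 CPM in detached and 3.31, 14.1 and 2.12 CPM in attached cells (1.86, SE 1.00, edgeR adjusted p = 0.730). Blood miRNAs summed to at most 22.4 CPM, endothelial ones to at most 36.7 CPM and striated muscle ones to at most 11.7 CPM, with miR-133a-3p at 0 counts in all libraries. miR-21-5p is expressed in those cell types too, and their part in its level was not tested.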

How the data were processed

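The count tables hold raw read counts per named small RNA as deposited, not normalized, with 5 summary rows that total 0. The submitters' processing notes name hg38 and DESeq2, without a version. Not given in the sources used here: aligner, counter, strand and how multi-matching reads were shared out. In the authors' deposited table, per the file header, the columns are log2 fold changes with standard errors, a test score, p-values and signal, that is counts divided by size factors, of which 100% came out as whole reads within 0.01. These reads equalled the deposited raw counts in 100% of rows in every library. Testing them as an alternative gave 0 calls and was no independent check. No column of values was left unused.

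Tested features were human miRNA rows, 15 of which join names. Totals were 8805009 to 15793173 counts per library. filterByExpr (minimum count 10, minimum total 15) kept 697. Tools were edgeR 4.0.16 (TMM, quasi-likelihood F test, Benjamini-Hochberg adjustment, two-sided), limma 3.58.1 on log2((5p + 0.5)/(3p + 0.5)) with the same filter for both arms, and R 4.3.3. They were tried on simulated counts that spread less between libraries than these, so their power at this spread was not tested. DESeq2 1.42.0 was an alternative. Log2 CPM profiles used a prior count of 2. Standard errors were the absolute log2 fold change over the square root of F. Same-group libraries were no duplicates (chi-square 747 to 4443 per degree of freedom).

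Members, lists and tests were chosen with earlier results of these data known. Named miRNAs were the members, the seed partner, the 10 most abundant, the 5 nearest profiles per arm, the 5 deepest hairpins and the 2 smallest p per list. A second list is not reported here. Other list members, markers and miR-33b were named after their values were seen.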

Additional observations from a re-analysis of the deposited data

How the results depend on the processing

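Both arms kept a negative log2 fold change and stayed uncalled in every alternative run. The 5p share difference was negative in all of them too, from -4.32 points (without attached replicate 3) to -1.41 points (without attached replicate 1). As a percentage of the other human miRNA counts, a ratio and not a share, miR-21-5p differed by -7.50. The permutation test could not pass 0.05 in any of these. Leaving out 1 library at a time gave 0 to 22 names called higher and 0 to 1 lower, the high values both without attached replicate 2, the library that deviates most. It also gave differences in log2 arm ratio of -0.15 to 0.30 (negative without detached replicate 1, and at -0.080 without attached replicate 1), in the 3p share of -0.064 to 0.0041 percentage points (positive without attached replicate 1) and 0 to 1 hairpins called, that one (miR-33b) without attached replicate 3. Without a filter edgeR called 14 higher and 5 lower, and DESeq2 called 12 higher. The median of the other names was 0.20 with totals alone, 0.31 scaled to miR-21-5p and -0.21 with TMM against attached replicate 2. With the replicate number as a block, which pairs the libraries only by number, the values were -0.57 (SE 0.60) for the 5p arm, -0.61 (SE 0.97) for the 3p arm, 0.04 for the arm ratio, 0.15 for the median and 1 hairpin called (miR-33b). Deviations of same-numbered libraries correlated at -0.20 and -0.18. The cause of these moves was not tested. With 2 detached libraries, 1 left-out library leaves the other assumed to vary like the attached ones. Depth does not limit either arm, and the spread between libraries does.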
